A study of Mus musculus with 6 samples.

Results

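The genes described here had all 4 tumor samples given a photosensitizer before irradiation on the same side of both tumor samples given the laser alone. The 2 PC-La samples (phycocyanin, PC) and the 2 SePC-La samples (selenium-enriched phycocyanin, Se-PC) were taken as 1 group of 4 and compared with the 2 Laser samples on log2(FPKM + 1). FPKM is the fragment count of a gene divided by its exon length and by the library's total. Of the 21899 genes listed, 10853 averaged 1 FPKM or more in the 6 samples together and were compared. Of these, 1013 genes (9.33%) met the rule. They comprised 335 genes (3.09%) that were higher and 678 genes (6.25%) that were lower in all 4 treated samples than in both Laser samples. These are called shared genes. The sides themselves chose the genes, so their count and values are a description and not a test. There are 15 ways to split 6 samples into 4 and 2. With interchangeable samples, each side of the rule would hold a share of 0.0667 of the genes by chance. The shares found, 3.09% and 6.25%, were not above that.

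The tumors grew from LLC (Lewis lung carcinoma), a lung cancer line of the mouse that can be transplanted. Luciferase-labelled LLC-luc cells were placed under the skin of male C57BL/6 mice near the axilla, so the tumors grew outside the lung. According to the labels, PC or Se-PC was injected into the tumor every 5 days and a 620 nm laser was applied for 10 min, starting 4 h after the injection. The Laser group received saline by the study's methods, and every group in the comparison was irradiated, so a tumor with no irradiation was not part of it. The methods give another wavelength and interval than the labels. The labels do not say whether the 2 samples of a group came from separate mice, so the error terms measure the spread between these samples.

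PC is a light-harvesting protein of cyanobacteria that carries bilin pigments. In photodynamic therapy (PDT) a photosensitizer that has been excited by light passes energy to oxygen, and the reactive oxygen species damage the cells around it. Dying tumor cells and the immune cells near them can release interferons. Interferons act through the JAK kinases and the transcription factors that these activate on a large set of genes, which include the guanylate-binding proteins, the immunoproteasome and MHC class I, the molecules that show peptides to CD8+ T cells.

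The higher shared genes held most of the interferon-inducible GTPases and MHC class I genes on the lists examined. They also held every erythroid marker that was compared, and the lower shared genes held every skeletal muscle marker that was compared. The filter let in most of these muscle markers only through the Laser samples, and the globin gene Hba-a2 only through the treated samples. Most other differences were small. The median difference (treated minus Laser) was 0.32 on the log2 scale over the 335 higher genes and -0.24 over the 678 lower genes, beside -0.03 over all genes tested. An absolute difference over 1 on the log2 scale was found in 19 higher and 15 lower shared genes.

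**Figure D1:**
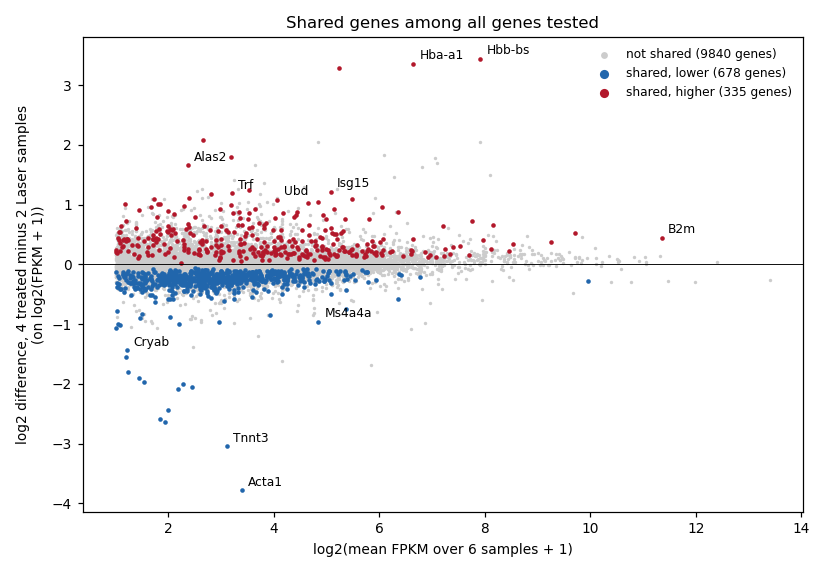
Each point is a gene, with its mean level on the x axis as log2(mean FPKM + 1) and the difference between the means of 4 treated and 2 Laser samples on log2(FPKM + 1) on the y axis. The 335 higher shared genes (red) and 678 lower shared genes (blue) lie mostly close to 0, and the hemoglobin gene Hbb-bs (3.44) and the muscle actin gene Acta1 (-3.78) lie farthest from it.

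No gene passed a Benjamini-Hochberg adjusted p under 0.05 in limma's fit of 4 treated against 2 Laser samples, where the smallest adjusted p was 0.999. An unadjusted p under 0.05 was found for 211 genes (1.94%), fewer than the 543 expected by chance, and 195 of the 211 were shared. Of all genes tested 1.22% were higher and 0.728% lower at that p, and 120 of the 335 higher and 75 of the 678 lower shared genes were among them, in the contrast that also chose them. With limma-voom on the recovered reads, 0 genes passed the adjusted threshold and 216 had an unadjusted p under 0.05. Only 15 splits of 6 samples into 4 and 2 exist, so an exact two-sided permutation test of a single gene on the absolute difference cannot go below 0.0667. The study's criterion, an absolute log2 fold change over 1 with an unadjusted p under 0.05, was met by 37 genes (0.341%), of which 32 were shared. These 37 were 21 higher (0.193%) and 16 lower genes (0.147%), of which 17 and 15 were shared. The levels below are therefore described as higher or lower, with the value in each sample. The totals of recovered reads lay between 14447792 and 17649489 reads. The 2 Laser samples were the least alike of the 3 pairs, with a correlation across genes of 0.946 on the log2 scale beside 0.992 for the PC-La pair and 0.972 for the SePC-La pair.

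The margin behind the rule was narrow for most genes. The gap between the nearest treated and the nearest Laser sample had a median of 0.066 on the log2 scale for the higher genes and 0.049 for the lower genes. It exceeded 0.2 for 50 higher and 29 lower genes. Just inside the rule stood Lif, a cytokine of the interleukin-6 family, with a gap of 0.000155. Lif was 6.52 and 0.69 FPKM in the Laser samples, 6.68 and 6.71 FPKM in PC-La, and 6.52 and 8.70 FPKM in SePC-La. Just outside it stood Acyp2, an acylphosphatase, with 1.03 and 1.44 FPKM in the Laser samples, 3.48 and 1.55 FPKM in PC-La, and 1.44 and 1.99 FPKM in SePC-La. On the lower side Pxk stood just inside. Deposited values were taken without further scaling. With median-ratio scaling 918 genes were shared, of which 50.3% were higher, and 692 of them were also shared without it. With quantile normalization 897 were shared, of which 46.7% were higher, and 619 of them were shared without it. The split without scaling was 33.1% higher, so the balance of higher and lower genes changed with the scaling.

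**Figure D2:**
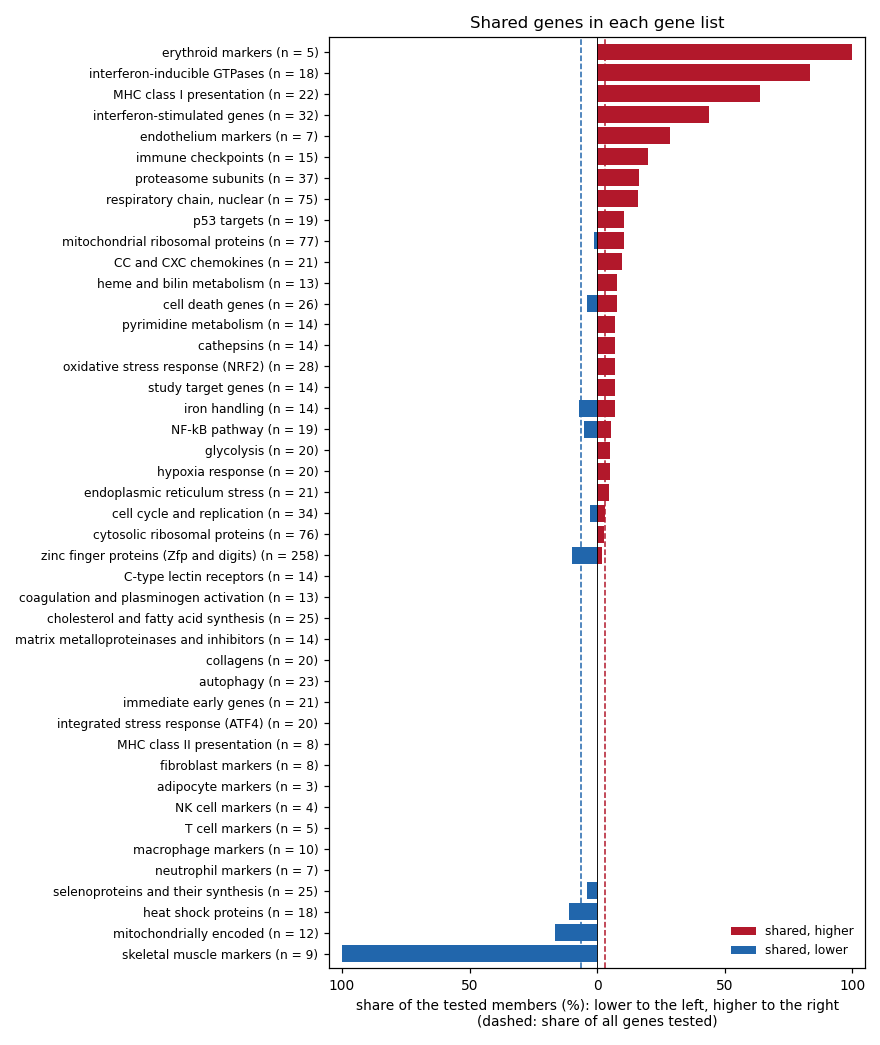
Bars give, for each gene list with at least 3 genes compared, the share of its genes that were shared and higher (right, red) or shared and lower (left, blue) in percent, and n is the number of genes compared. The dashed lines mark 3.09% and 6.25% of all genes tested. The erythroid and skeletal muscle lists reach 100%, and the interferon-inducible GTPases (83.3%), MHC class I presentation (63.6%) and interferon-stimulated genes (43.8%) come next. Most of the muscle markers passed the filter only through the Laser samples.

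Interferon-inducible GTPases are large and small GTPases that gather on the vacuoles of intracellular pathogens. Of the 18 compared, 15 were shared and higher and 0 were shared and lower, beside 3.09% and 6.25% of all genes. Their median difference over the 18 genes was 0.71 on the log2 scale. None of them met the criterion of the study, since no difference reached 1. Igtp (Irgm3), a small GTPase of the IRG family, had the widest gap of them, 0.59 on the log2 scale. It was 45.7 and 56.7 FPKM in the Laser samples, 99.9 and 107 FPKM in PC-La, and 88.2 and 85.5 FPKM in SePC-La, a difference of 0.88 ± 0.16 (SE). The 4 treated samples lay above both Laser samples and close to each other.

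The guanylate-binding proteins, which coat pathogen vacuoles and aid inflammasome activation, made up 7 of the 15. Gbp3 was 24.3 and 29.1 FPKM in Laser, 45.3 and 57.2 FPKM in PC-La, and 42.7 and 39.9 FPKM in SePC-La. Gbp4 was 14.2 and 11.2 FPKM in Laser, 23.6 and 35.0 FPKM in PC-La, and 20.8 and 19.5 FPKM in SePC-La. In both genes the PC-La sample 2 was the highest and the groups did not overlap. Gbp2, the most abundant of them per length, met the rule by a gap of 0.0024 only, because Laser sample 2 (209 FPKM) lay next to PC-La sample 1 (210 FPKM). Gbp2, Gbp10, Iigp1, Irgm1 and Irgm2 were not shared under every scaling, and 11 of the 18 GTPases were shared and higher under quantile normalization. The Gbp genes, the IRG genes and the pair Tgtp1 and Tgtp2 are close copies within their families, and reads may have been split between them. The 3 members that did not meet the rule were Gbp8, Gbp9 and F830016B08Rik. F830016B08Rik was lower in SePC-La (1.60 and 1.36 FPKM) and higher in PC-La (6.52 and 9.24 FPKM) than in Laser (3.42 and 2.90 FPKM).

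The differences of the GTPases from Laser were of unequal size in the treatments, without passing an adjusted p. Of the 15 shared members, 14 had a larger difference from Laser in PC-La than in SePC-La. The 2 treatments share the Laser samples, and the median difference over the 18 genes stood at 1.00 for PC-La but 0.44 for SePC-La. An unadjusted limma p under 0.05 for SePC-La against PC-La was found for 6 of the 15, all of them lower in SePC-La, where 14.4% of all genes tested were lower and 9.91% higher at that p. The adjusted limma p was at least 0.126 for these genes. Gm4951 was 8.47 and 7.56 FPKM in Laser, 17.1 and 19.4 FPKM in PC-La, and 9.26 and 10.9 FPKM in SePC-La. Its difference between SePC-La and PC-La was -0.79 ± 0.14 (SE, log2 scale). Gbp5 was alike in the treatments, with 7.69 and 10.1 FPKM in PC-La and 9.02 and 8.34 FPKM in SePC-La against 5.97 and 5.41 FPKM in Laser, and its difference between treatments was -0.02 ± 0.16.

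**Figure D3:**
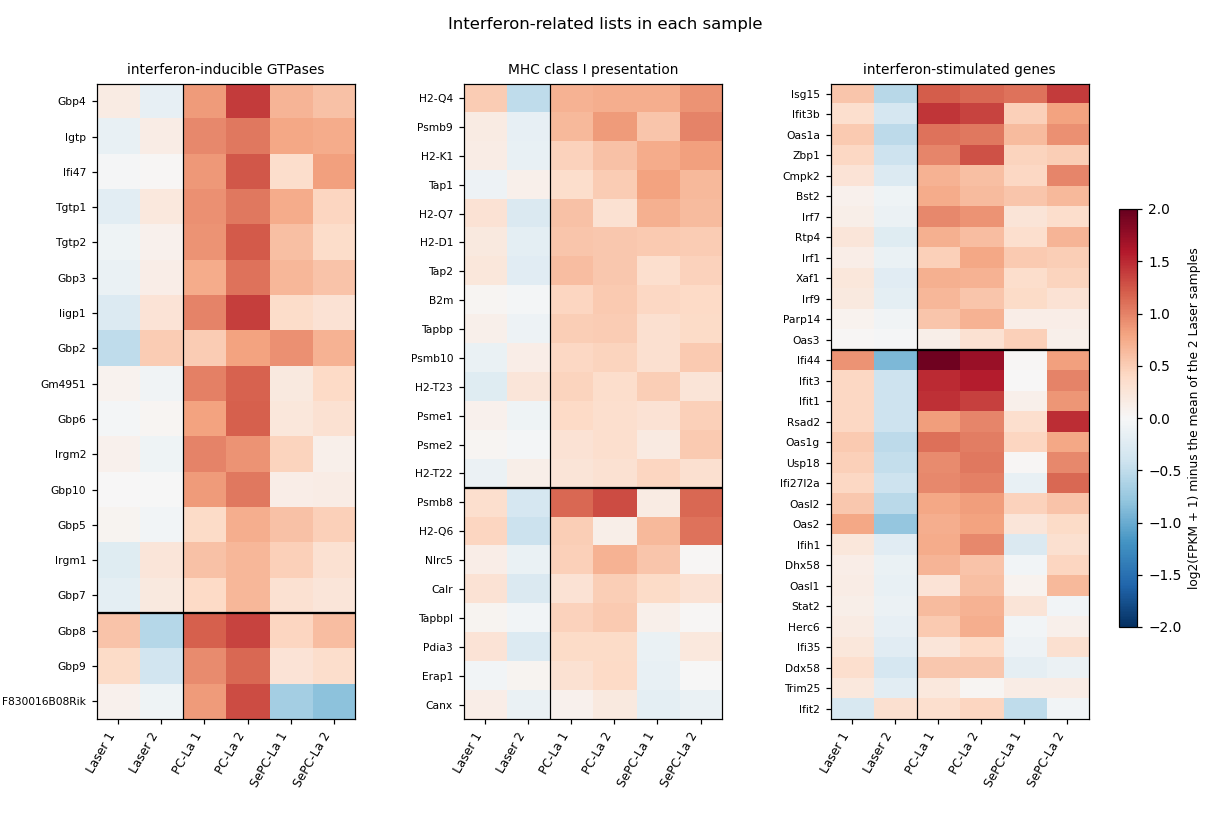
Colour gives log2(FPKM + 1) minus the mean of the 2 Laser samples for each gene (rows) and sample (columns) of 3 lists, with the scale limited to the range from -2 to 2. Genes above the thick line were shared and higher (15 of 18 GTPases and 14 of 22 class I genes), 1 interferon-stimulated gene is not drawn, and the PC-La columns are darker than the SePC-La columns in most rows of the GTPases.

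MHC class I presentation was the next list. It covers the class I heavy chains, beta-2 microglobulin, the peptide transporter TAP, tapasin and the parts of the immunoproteasome, which cuts proteins into peptides for class I. Of its 22 genes compared, 14 (63.6%) were shared and higher and 0 were lower, beside 3.09% and 6.25% of all genes, with a median difference of 0.44 on the log2 scale over the 22. Under quantile normalization 13 were shared, and B2m, H2-D1 and H2-T23 were not shared under every scaling. B2m, the light chain of every class I molecule, was 2180 and 2049 FPKM in Laser, 2859 and 3049 FPKM in PC-La, and 2820 and 2796 FPKM in SePC-La. The heavy chain gene H2-K1 was 228 and 184 FPKM in Laser, 282 and 309 FPKM in PC-La, and 345 and 364 FPKM in SePC-La. H2-D1 was 733 and 562 FPKM in Laser, 944 and 932 FPKM in PC-La, and 921 and 913 FPKM in SePC-La. For H2-D1 the spread of the 4 treated samples (SD 13.3 FPKM) was smaller than that of the Laser samples (SD 121 FPKM). H2-Q4, H2-Q7, H2-T22 and H2-T23, class I genes of the same family with similar sequences, were shared too.

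Genes that supply the peptides were among them. Psmb9, a catalytic subunit of the immunoproteasome, was 7.74 and 5.94 FPKM in Laser, 11.2 and 13.02 FPKM in PC-La, and 10.4 and 14.5 FPKM in SePC-La. Tap1, a subunit of the transporter TAP, was 15.1 and 17.6 FPKM in Laser, 21.03 and 23.5 FPKM in PC-La, and 29.1 and 26.1 FPKM in SePC-La. Tap2, Tapbp (tapasin), Psmb10 and the proteasome activator subunits Psme1 and Psme2 were shared with differences between 0.33 and 0.49. The remaining immunoproteasome catalytic subunit, Psmb8, did not meet the rule, because SePC-La sample 1 (2.74 FPKM) lay between the Laser samples (3.26 and 1.64 FPKM). Of the 37 proteasome subunits compared, Psmb9 and Psmb10 included, 6 (16.2%) were higher and 0 lower, beside 3.09% and 6.25% of all genes. The other 4 were Psma6, Psmb6, Psmc4 and Psmd11, with differences between 0.16 and 0.30, and Psma6 and Psmb6 were not shared under every scaling.

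In contrast to the GTPases, the class I list had like medians in both treatments, 0.44 in PC-La and 0.39 in SePC-La. None of its 14 shared genes reached an unadjusted p under 0.05 for SePC-La against PC-La in limma. Their smallest adjusted p was 0.237, which leaves differences of the size of Tap1 (0.30 ± 0.14, SE, log2 scale, higher in SePC-La) and Tap2 (-0.17 ± 0.17) undecided. Whether the GTPases and the class I genes differ in this respect was not tested.

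MHC class II presentation did not follow. Its 8 genes compared had a median difference of 1.38 on the log2 scale, larger than either list above, but 0 of them met the rule. The summed level of the 10 class II genes listed was 435 and 118 FPKM in Laser, 1132 and 1418 FPKM in PC-La, and 386 and 319 FPKM in SePC-La. The SePC-La samples lay between the Laser samples and the PC-La samples above both.

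Among the other interferon-stimulated genes, 14 of 32 compared (43.8%) were shared and higher and 0 were lower, beside 3.09% and 6.25% of all genes, with a median difference of 0.60 over the 32. Isg15, a ubiquitin-like protein that is joined to other proteins, was 25.1 and 11.1 FPKM in Laser, 40.3 and 38.5 FPKM in PC-La, and 36.9 and 45.8 FPKM in SePC-La. Bst2 (tetherin), which holds budding viruses at the cell surface, was 114 and 100.0 FPKM in Laser, 178 and 166 FPKM in PC-La, and 157 and 167 FPKM in SePC-La. In both genes the SePC-La and PC-La samples intermixed. The difference of Isg15 from Laser was 1.21 ± 0.29 (SE, log2 scale), and without Laser sample 2 it was 0.66 and did not meet the criterion. The difference between the treatments was 0.06 ± 0.35 for Isg15 and -0.09 ± 0.13 for Bst2 (SE, log2 scale).

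Transcription factors of the pathway were among the shared genes. Irf1, an early target of interferon-gamma, was 31.8 and 26.5 FPKM in Laser, 40.9 and 50.3 FPKM in PC-La, and 42.4 and 41.2 FPKM in SePC-La. Irf7 and Irf9 were shared as well. An unadjusted limma p under 0.05 for SePC-La against PC-La was found for 5 of the 14 genes, Irf7, Ifit3b, Zbp1 and Parp14 among them, and all 5 were lower in SePC-La. The smallest adjusted limma p among the 14 was 0.126. Of the antiviral Ifit and Oas families Ifit3b, Oas1a and Oas3 were shared, while Ifit1, Ifit2, Ifit3, Oas1g and Oas2 were not, nor was Stat2.

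The other 18 interferon-stimulated genes had positive differences without meeting the rule. Without SePC-La sample 1, 25 of the 32 were shared, and without Laser sample 1, 30 were. The GTPase count lay between 14 and 17 and the class I count between 14 and 20 when any 1 sample was left out. Fewer samples loosen the rule, so such counts can fall only through the filter. Over all genes the 335 higher shared genes became 861 without SePC-La sample 1 and 2123 without Laser sample 1.

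Chemokines that draw T cells through the receptor CXCR3 were shared, while the other chemokines were not. Of 21 CC and CXC chemokines compared, Cxcl9 and Cxcl10 (9.52%) were the only shared ones, beside 3.09% higher among all genes. Cxcl9 was 32.7 and 42.6 FPKM in Laser, 77.8 and 129 FPKM in PC-La, and 44.6 and 65.5 FPKM in SePC-La. Cxcl10 was 22.9 and 17.8 FPKM in Laser, 33.0 and 56.6 FPKM in PC-La, and 26.5 and 48.2 FPKM in SePC-La. Of 15 immune checkpoint genes compared, 3 (20.0%) were shared and higher, beside the same 3.09%. Cd274, the gene of PD-L1, was 9.99 and 8.01 FPKM in Laser, 11.3 and 14.8 FPKM in PC-La, and 18.7 and 15.3 FPKM in SePC-La. The others were the costimulatory ligand Cd86 (difference 0.49) and Nectin2 (0.59), a ligand of TIGIT and CD226.

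Cell type markers were examined beside these genes, since in a tumor sample fewer cells of a type and less RNA per cell cannot be told apart. None of the T cell markers (5 compared), NK cell markers (4) or macrophage markers (10) were shared, beside 9.33% of all genes tested. Lists this small can hold none at that share. The summed level of 8 T cell markers was 14.3 and 5.19 FPKM in Laser, 16.0 and 12.8 FPKM in PC-La, and 5.11 and 14.9 FPKM in SePC-La. The sum of 8 NK cell markers was 23.4 and 29.4 FPKM in Laser, 55.1 and 29.5 FPKM in PC-La, and 16.3 and 33.2 FPKM in SePC-La. The macrophage sum was 1733 and 2399 FPKM in Laser, 2115 and 2173 FPKM in PC-La, and 1089 and 1743 FPKM in SePC-La. The treated and Laser samples overlapped in all 3 sums. The part of these cells in the interferon-related levels was not tested.

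Promoters are shown for the 4 genes with the widest gaps in the 3 interferon-related lists, because all 4 held letters of the kind that interferon factors can bind. They are from RefSeq (GRCm38.p6). The 250 bases before the start are printed 5' to 3' on the strand of the gene. Capitals mark matches on either strand to TTCNNNGAA, the gamma-activated site (GAS), or to GAAA, any 2 bases and GAAA, the core of the interferon-stimulated response element (ISRE). The window of Igtp lies on the plus strand (chr11:58199306-58199555), Isg15 on the minus strand (chr4:156200819-156201068), Bst2 on the minus strand (chr8:71537473-71537722) and Gbp3 on the plus strand (chr3:142559794-142560043).
Igtp: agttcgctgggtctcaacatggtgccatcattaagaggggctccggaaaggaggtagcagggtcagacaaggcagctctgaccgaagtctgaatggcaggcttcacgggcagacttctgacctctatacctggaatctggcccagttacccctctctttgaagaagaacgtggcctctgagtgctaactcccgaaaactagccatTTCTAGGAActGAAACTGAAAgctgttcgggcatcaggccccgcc
Isg15: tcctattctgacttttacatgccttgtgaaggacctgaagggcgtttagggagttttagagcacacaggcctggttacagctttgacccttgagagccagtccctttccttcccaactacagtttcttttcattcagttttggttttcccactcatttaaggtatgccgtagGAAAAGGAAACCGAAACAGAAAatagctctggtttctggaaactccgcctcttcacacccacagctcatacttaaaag
Bst2: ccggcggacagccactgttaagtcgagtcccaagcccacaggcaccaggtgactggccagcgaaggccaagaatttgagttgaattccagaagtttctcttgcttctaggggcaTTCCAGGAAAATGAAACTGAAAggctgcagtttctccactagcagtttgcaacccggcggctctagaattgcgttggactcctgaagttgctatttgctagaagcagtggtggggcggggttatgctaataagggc
Gbp3: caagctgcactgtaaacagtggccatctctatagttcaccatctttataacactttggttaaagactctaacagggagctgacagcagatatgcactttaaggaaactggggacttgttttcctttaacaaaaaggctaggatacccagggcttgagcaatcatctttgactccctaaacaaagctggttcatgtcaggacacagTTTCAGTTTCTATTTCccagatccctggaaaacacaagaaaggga
Igtp held a GAS match from -45 to -37 and an ISRE match from -34 to -25, counted from the start. Isg15 held 3 overlapping ISRE matches between -78 and -57. Bst2 held a GAS match from -136 to -128 that overlapped the first of 2 ISRE matches. Gbp3 held 2 overlapping ISRE matches from -45 to -30 on the opposite strand. The windows of Psmb9, Tap1, Ubd and Ube2l6 held neither set of letters, which says nothing about the factors. Those of Psmb9 and Tap1 overlap on opposite strands and are not separate cases. The start used for Psmb9 lay 434 bases from its GENCODE start. Of the 8707 promoters found for all genes tested, 5.90% held a GAS and 2.87% an ISRE match. The 4 windows printed were chosen for their matches, from lists of interferon-related genes, so these shares are no test of them. A count over the shared interferon-related genes is void, because only 35 of 45 (77.8%) had a promoter in the table.

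**Figure D4:**
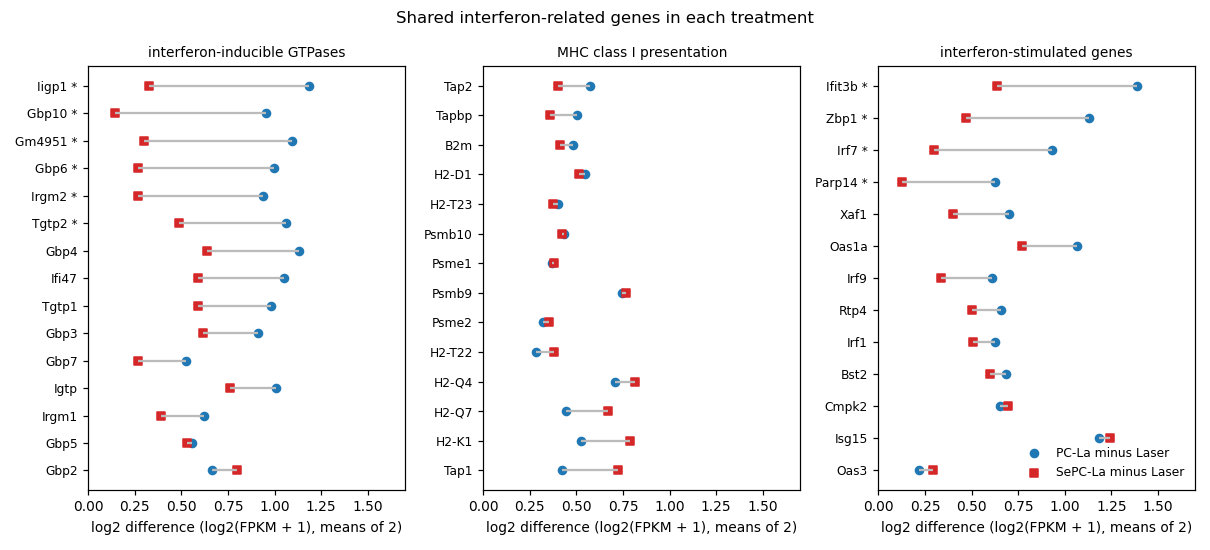
Points give the difference from the Laser mean, on log2(FPKM + 1), of the PC-La mean (blue circles) and the SePC-La mean (red squares) for each shared gene of 3 lists, and an asterisk marks an unadjusted limma p under 0.05 between the treatments. Blue lies to the right of red for 14 of 15 GTPases, 6 of 14 class I genes and most of the interferon-stimulated genes, of which 1 is not drawn.

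Of the 15 higher genes with the widest gaps, Ubd, Ube2l6, Batf2, Igfbp3 and Trf belong to none of the interferon-related or erythroid lists. Ubd (FAT10), a ubiquitin-like modifier that marks proteins for degradation, had a gap of 0.87 on the log2 scale. It was 8.54 and 8.58 FPKM in Laser, 16.5 and 22.8 FPKM in PC-La, and 20.8 and 17.7 FPKM in SePC-La, and its difference stayed between 1.01 and 1.16 whichever sample was left out. Ube2l6, the enzyme that carries ISG15 to its targets, was 25.1 and 26.1 FPKM in Laser, 38.4 and 37.8 FPKM in PC-La, and 33.8 and 38.9 FPKM in SePC-La. Both genes showed treated samples that lay together and apart from Laser. Batf2, a transcription factor of activated macrophages, was 6.10 and 4.13 FPKM in Laser, 9.29 and 12.98 FPKM in PC-La, and 8.29 and 9.70 FPKM in SePC-La. Igfbp3, a binding protein of insulin-like growth factors, was 22.4 and 24.5 FPKM in Laser, 39.9 and 49.2 FPKM in PC-La, and 88.8 and 39.4 FPKM in SePC-La, with SePC-La sample 1 far above the others. The criterion was not met by Igfbp3 without Laser sample 1 or without SePC-La sample 1.

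Trf, the iron carrier transferrin, was the only one of 14 genes compared from the study's transcriptome results that was shared. The share of 7.14% stands beside 9.33% of all genes tested. Trf was 5.65 and 2.56 FPKM in Laser, 9.35 and 10.2 FPKM in PC-La, and 8.30 and 13.1 FPKM in SePC-La. Its difference was 1.19 ± 0.28 (SE, log2 scale) and was 0.74 without Laser sample 2. The other 13 genes did not have all treated samples on one side, and their median differences from Laser, over the 14, were -0.24 in PC-La and 1.23 in SePC-La.

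Of the 21 higher genes past the study's criterion, 17 were shared. Beside the erythroid genes and Isg15, Ifit3b, Ubd, Igfbp3 and Trf they were Areg, Chga, Csf3, Dnase1l3, Fst, Lst1 and Rhov. These last are named here after their values were seen. Dnase1l3 and Rhov passed the filter only through the treated samples. Areg, a ligand of the EGF receptor, was 22.8 and 10.1 FPKM in Laser, 23.5 and 29.3 FPKM in PC-La, and 41.7 and 38.2 FPKM in SePC-La. Csf3, the gene of G-CSF, was 5.22 and 0.36 FPKM in Laser, 7.29 and 6.10 FPKM in PC-La, and 5.93 and 24.2 FPKM in SePC-La. For both genes Laser sample 1 lay just below the nearest treated sample, and the criterion was no longer met without Laser sample 2. Areg did not meet it without either SePC-La sample either. Csf3 lost it under 10 of the alternatives, among them limma-voom, no filter, the replicate block and leaving out any 1 treated sample. The 5 genes past the criterion that were not shared included the chemokine Ccl5 and the macrophage metalloelastase Mmp12.

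Hemoglobin genes had the largest positive differences among the shared genes. All 5 erythroid markers compared were shared and higher, with a median difference of 3.29 on the log2 scale. The beta-globin gene Hbb-bs was 76.96 and 9.15 FPKM in Laser, 172 and 226 FPKM in PC-La, and 395 and 562 FPKM in SePC-La. The alpha-globin gene Hba-a1 was 36.7 and 2.79 FPKM in Laser, 63.4 and 88.4 FPKM in PC-La, and 158 and 246 FPKM in SePC-La. For both genes the order of the samples was Laser 2, Laser 1, PC-La 1, PC-La 2, SePC-La 1 and SePC-La 2. Alas2, the erythroid enzyme that starts heme synthesis, was 1.48 and 0.66 FPKM in Laser, 3.57 and 4.67 FPKM in PC-La, and 5.59 and 8.94 FPKM in SePC-La.

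The globin genes come in near-identical pairs, Hba-a1 with Hba-a2 and Hbb-bs with Hbb-bt, so that their levels are not separate. Hba-a2 passed the filter only through the treated samples and was listed at 0 in Laser sample 2. Without that sample Hba-a1 and Hba-a2 no longer met the criterion of the study, nor did Hba-a2 without SePC-La sample 1. All 5 markers remained shared, which the rule fixes in advance when a sample is left out. Slc4a1, the anion exchanger of the red cell membrane, stayed below 1 FPKM, with at most 0.039 FPKM in Laser and between 0.18 and 0.35 FPKM in the treated samples. The summed level of the 7 erythroid markers was 127 and 13.6 FPKM in Laser, 263 and 362 FPKM in PC-La, and 614 and 933 FPKM in SePC-La. In the limma comparison of the treatments Hba-a2 alone had an unadjusted p under 0.05, with an adjusted p of 0.187. How much blood each tumor piece held was not tested. Outside the erythroid enzyme, 0 of the 12 other genes of heme and bilin metabolism were shared, beside 9.33% of all genes tested.

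**Figure D5:**
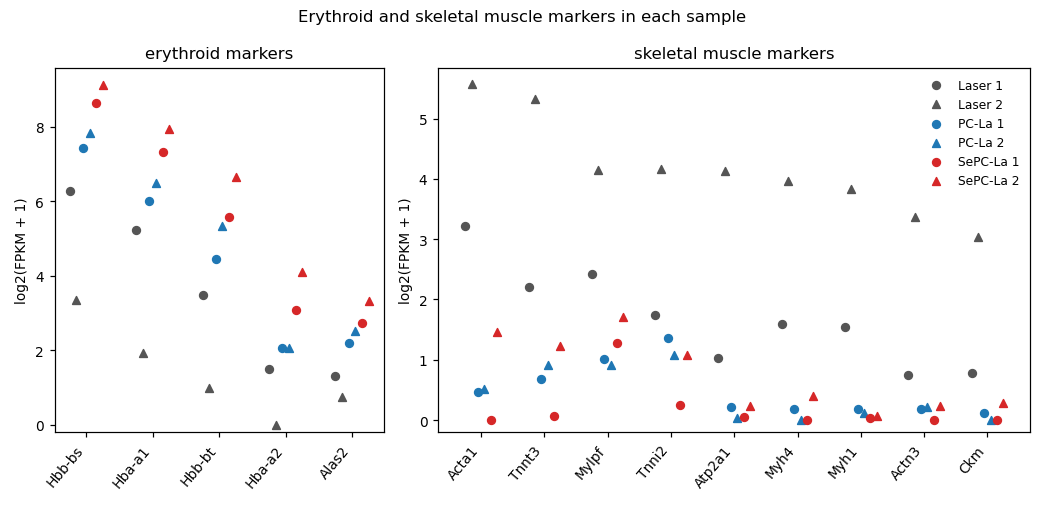
Points give log2(FPKM + 1) of the 5 erythroid (left) and 9 skeletal muscle markers (right) compared, with 6 samples per gene, circles for replicate 1 and triangles for replicate 2 of Laser (grey), PC-La (blue) and SePC-La (red). The grey points lie below all others on the left and above all others on the right, and Laser 2 lies farther from the treated samples than Laser 1 in every gene.

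Skeletal muscle genes had the largest negative differences. All 9 of the 12 muscle markers that passed the filter were shared and lower, with a median difference of -2.45 on the log2 scale, and all 9 met the criterion of the study. Tnni2 did not meet it without Laser sample 2. The 9 markers passed the filter through the Laser samples, except Mylpf, whose treated mean was 1.40 FPKM. The filter itself therefore bears on how many of them were shared and lower or met the criterion. Acta1, the actin of skeletal muscle, was 8.28 and 46.4 FPKM in Laser, 0.37 and 0.44 FPKM in PC-La, and 0 and 1.75 FPKM in SePC-La. Tnnt3, the troponin T of fast muscle fibres, was 3.62 and 39.2 FPKM in Laser, 0.61 and 0.89 FPKM in PC-La, and 0.04 and 1.34 FPKM in SePC-La. Myh1 and Myh4, heavy chains of fast myosin, were between 1.91 and 14.6 FPKM in Laser and at most 0.32 FPKM in the treated samples.

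Laser sample 2 held most of this signal. The summed level of the 12 muscle markers was 26.4 and 182 FPKM in Laser, 4.48 and 3.84 FPKM in PC-La, and 1.77 and 7.67 FPKM in SePC-La. Without Laser sample 2 only 4 of the markers passed the filter. All 4 were still shared and lower, which the rule fixes in advance when a sample is left out. Of the 3 markers below the filter, Pvalb was 1.41 and 1.74 FPKM in Laser and at most 0.22 FPKM in the treated samples, while Tnnc2 and Mb were at most 0.27 FPKM in any sample. Between SePC-La and PC-La none of the 9 had an unadjusted limma p under 0.05. How much muscle each tumor piece held was not tested.

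The other 6 shared genes among the 16 lower genes past the criterion were Cryab, Des, Fhl1, Pygm, Tcap and Sult1a1. The first 5 are known from muscle, as a small heat shock protein, an intermediate filament, a LIM protein, glycogen phosphorylase and a titin partner. Pygm was not shared under every scaling. All 6 genes were under 1 FPKM in every treated sample and passed the filter only through the Laser samples. Cryab was 2.24 and 3.83 FPKM in Laser, 0.43 and 0.32 FPKM in PC-La, and 0.33 and 0.81 FPKM in SePC-La. Its difference was between -1.73 and -1.39 when any sample but Laser sample 2 was left out, and without that sample its mean fell under 1 FPKM. Cryab and Hspb1 were the 2 of 18 heat shock genes (11.1%) that were shared, both lower, beside 6.25% of all genes. Hspb1 was not shared under every scaling.

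Of the 678 lower shared genes, 41 differed by more than 0.5 on the log2 scale, muscle genes included. Outside the muscle lists the difference was, for example, -1.01 for Sult1a1, -0.96 for Ms4a4a and -0.89 for Hspb1. Sult1a1, a sulfotransferase, was not shared under every scaling and passed the filter only through the Laser samples. Of the 15 with the widest gaps at a mean of 5 FPKM or more, all but Acta1 and Tnnt3 were not muscle genes. Ms4a4a, a membrane protein of the MS4A family, stood first among these, with 35.7 and 46.7 FPKM in Laser, 16.7 and 15.9 FPKM in PC-La, and 23.2 and 28.6 FPKM in SePC-La. It lay closer to Laser in SePC-La, with a difference between treatments of 0.63 ± 0.17 (SE, log2 scale) and an adjusted limma p of 0.134. Abcc5, an exporter of cyclic nucleotides, was 9.85 and 9.67 FPKM in Laser, 7.92 and 6.74 FPKM in PC-La, and 4.44 and 5.50 FPKM in SePC-La. Flvcr1, a heme and choline transporter, was 12.9 and 15.2 FPKM in Laser, 8.42 and 7.40 FPKM in PC-La, and 10.7 and 11.3 FPKM in SePC-La.

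Others were Zfp970, Zfp326, Fbxl8, Wasf1, Slc25a27, Cert1, Meaf6, Haghl and Dync2i1. They include the actin regulator Wasf1 and the ceramide carrier Cert1, and their differences lay between -0.48 and -0.23. Cert1 was 10.3 FPKM in both Laser samples, 8.90 and 8.63 FPKM in PC-La, and 8.89 and 7.51 FPKM in SePC-La.

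Zinc finger genes, counted as symbols of the form Zfp and digits and mostly DNA-binding factors, leaned to the lower side. Of 258 compared, 26 (10.1%) were shared and lower and 5 (1.94%) were shared and higher, beside 6.25% and 3.09% of all genes. Their median difference was -0.12, with -0.0032 for PC-La and -0.24 for SePC-La. Under the scalings tried 21 and 19 were shared and lower. Leaving out 1 sample gave 26 to 102, with 102 without Laser sample 1, 63 without Laser sample 2, 47 without PC-La sample 1 and 39 without PC-La sample 2. Fewer samples loosen the rule, and over all genes the 678 lower shared genes became 836 to 2640 with 1 sample left out. Of the 31 shared zinc finger genes, 0 had an unadjusted limma p under 0.05 between the treatments.

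Mitochondrial genes of the nucleus leaned to the higher side by small amounts, mainly in SePC-La. Of 75 nuclear genes of the respiratory chain, 12 (16.0%) were shared and higher and 0 lower, and of 77 mitochondrial ribosomal proteins 8 (10.4%) were higher and 1 lower, beside 3.09% and 6.25% of all genes. Ndufa13, a complex I subunit, was 30.4 and 27.3 FPKM in Laser, 45.3 and 39.1 FPKM in PC-La, and 32.0 and 40.4 FPKM in SePC-La. Cox8a, a complex IV subunit, was 247 and 241 FPKM in Laser, 289 and 262 FPKM in PC-La, and 296 and 327 FPKM in SePC-La. Ndufa13 was shared under every scaling, and Cox8a was not. For PC-La and SePC-La the median differences from Laser were 0.05 and 0.19 over the 75 genes, and 0.00051 and 0.16 over the 77. The widest gap among the 12 was 0.088 on the log2 scale, and 7 respiratory chain genes were shared and higher under quantile normalization. Leaving out 1 sample gave 12 to 30 of them, with 30 without Laser sample 2, 27 without Laser sample 1, 25 without SePC-La sample 1 and 20 without PC-La sample 2. Fewer samples loosen the rule, and over all genes the 335 higher shared genes became 416 to 2123 with 1 sample left out. Of 12 genes encoded in the mitochondrion itself, mt-Nd5 and mt-Nd4l (16.7%) were shared and lower and 0 were higher. Over all genes the shares were 6.25% and 3.09%, and mt-Nd5 was not shared under every scaling.

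Gene length moved with these directions. The median merged exon length was 2770 bases for the higher shared genes and 6447 bases for the lower ones, beside 4444 bases for all genes tested. The median of the mean level was 13 FPKM for the higher and 6.19 FPKM for the lower shared genes, beside 8.95 FPKM. All shared genes were annotated as protein coding. The part of length or RNA quality in the counts was not tested.

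Stress and death pathways were compared with the 3.09% higher and 6.25% lower shared genes among all genes tested. Of 19 p53 targets 2 (10.5%) were shared and higher. The cell cycle inhibitor Cdkn1a (28.8 and 17.4 FPKM in Laser, 34.9 and 32.5 FPKM in PC-La, 30.3 and 38.7 FPKM in SePC-La) and the death effector Bax were these 2. Of 26 cell death genes, Bax and Bak1 (7.69%) were higher and Gsdme, a pore-forming gasdermin, was lower (3.85%). Prdx1 and Taldo1 were the 2 shared of 28 genes (7.14%) of the NRF2 response to oxidative stress, both higher. Each of these shares rests on 1 or 2 genes, and Gsdme, Prdx1 and Taldo1 were not shared under every scaling. Of 25 selenoprotein and selenium pathway genes, Selenop, the plasma carrier of selenium, was the only shared one. It was 50.4 and 52.7 FPKM in Laser, 44.6 and 33.0 FPKM in PC-La, and 11.3 and 49.4 FPKM in SePC-La, so that SePC-La sample 2 lay close to Laser. Selenop was not shared under every scaling either.

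Ankrd37 among 20 hypoxia genes, Aldoc among 20 glycolysis genes and Il6 with Ikbkb among 19 NF-κB pathway genes were shared, and Ikbkb was lower. Ankrd37 and Ikbkb were not shared under every scaling. None of 20 genes of the integrated stress response, 21 immediate early genes, 23 autophagy genes, 20 collagens, 7 neutrophil markers or 8 fibroblast markers met the rule. Over all genes tested 9.33% met the rule, so finding none in lists this small says little about them. Of 7 endothelial markers, the adhesion molecule Cdh5 (difference 0.53) and Egfl7 (0.27) were higher (28.6%), beside 3.09% of all genes.

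The treatments differed from each other in fewer of the shared genes than elsewhere, a share that the rule itself bears on, since it keeps both treatments on one side. An unadjusted limma p under 0.05 for SePC-La against PC-La was found for 36 of the 335 higher genes (10.7%) and 44 of the 678 lower genes (6.49%), beside 24.3% of all genes tested. Of the 44 lower genes 41 were lower still in SePC-La. The criterion of the study was met between the treatments by 3 of the higher and 0 of the lower shared genes, beside 2.98% of all genes. No gene had an adjusted p under 0.05 in this limma comparison, where the smallest was 0.0649. PC-La and SePC-La lay on opposite sides of both Laser samples in 929 genes (8.56%). With interchangeable samples this pattern would be rarer than the shared one, so its count cannot be compared directly with the 1013 shared genes.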

How the data were processed

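RNA from LLC tumors was sequenced by the study on an Illumina instrument, with 2 samples per group (Laser; PC-La; SePC-La). The authors deposited 1 table of FPKM values (fragments scaled by exon length and library total), 1 column per sample. The unit was read from the numbers themselves. After multiplication by merged GENCODE M21 exon lengths (GRCm38), all 6 values were whole reads (within 0.02 reads or 0.01%) for 97.8% of the expressed genes, with a median total of 15673398 reads. The submitters' processing notes name HISAT2 2.0.5, HTSeq 0.9.1, DESeq 1.30.0 and mm9. Coordinates given here are those of GRCm38 and not of the deposited table, which holds none.

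Values were used as deposited. Genes averaging 1 FPKM or more were kept, and log2(FPKM + 1) was fitted with limma 3.58.1 (R 4.3.3; trend and robust estimation), with 4 treated against 2 Laser samples, and with 3 group means for SePC-La against PC-La. A fold change on log2(FPKM + 1) understates the change of low genes. The fits were tested on simulated counts with the same means in PC-La and SePC-La and an equal spread in all samples. The deposited samples are less even than that, so the simulation checks only how the fits run. The members and the gene lists were chosen with earlier results of these data known, and no set test was run. Genes were named by the following rule: the 15 higher and 15 lower shared genes with the widest gap at a mean of at least 5 FPKM (predicted genes passed over), shared members of the lists described, shared genes of the study's transcriptome results, and 5 genes on each side of the edge of the rule. Genes past the criterion were added after their values were seen. Alternatives were a pseudocount of 0.1, no filter, a minimum of 5 FPKM, median-ratio and quantile scaling, limma-voom on recovered reads, no trend, no robust estimation, 3 group means, the replicate number as a block, other margins and folds, and each sample left out. A few genes are counted in the lists and sums but not reported here by name.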

Additional observations from a re-analysis of the deposited data

Results flagged for a closer look

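In 6 of the 141 shared genes examined, 1 of the 4 treated samples stood apart from the other 3, with a gap to its nearest neighbour above Dixon's 95% critical share of the whole range of the 4. Chance gives such a gap in about 1 in 20 groups of 4. In Aldoc, an aldolase, it was PC-La sample 2 (1.68 FPKM beside 1.08 to 1.16 FPKM), with 0.857 of the range. In the other 5 genes it was SePC-La sample 2. The cytokine gene Csf3 was 24.2 FPKM there and between 5.93 and 7.29 FPKM in the other treated samples (0.861 of the range). Prdx1, a peroxiredoxin, was 203 FPKM beside 154 to 161 FPKM (0.844). The complex III subunit Uqcrc1 was 56.1 FPKM beside 43.7 to 45.6 FPKM (0.830), and the mitochondrial ribosomal protein Mrps27 was 14.4 FPKM beside 11.7 to 12.0 FPKM (0.862). Dync2i1, a dynein-2 subunit, was lower there, with 6.69 FPKM beside 7.94 to 8.12 FPKM (0.879).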

How the results depend on the processing

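Over the 141 named genes, 0 differences changed sign under any alternative tried. For most alternatives the rule fixed this in advance, because it put all treated samples on one side of both Laser samples. A change of scaling could have reversed a sign. Of the alternative values, 2245 kept their direction and side of the criterion, 52 fell below the criterion and 48 newly passed it. The count of 335 higher shared genes became 546 with no filter and 50 at a margin of 0.2. The 678 lower ones became 408 at a minimum of 5 FPKM and 29 at that margin. Leaving out 1 sample gave 416 to 2123 higher and 836 to 2640 lower, with the highest counts without Laser sample 1. The rule is looser with fewer samples. The 37 genes past the criterion became 61 with a pseudocount of 0.1, 13 at a minimum of 5 FPKM, 57 with limma-voom and 101 at 1.5-fold. Leaving out 1 sample gave 18 (without Laser sample 2) to 225 (without Laser sample 1), and 60 without SePC-La sample 1. Without Laser sample 2, 9 of the 25 criterion genes still tested were called. Genes with an adjusted limma p under 0.05 numbered 0 to 10, with the 10 found without Laser sample 1. For SePC-La against PC-La, 323 genes became 488 with a pseudocount of 0.1, 186 at 5 FPKM, 487 with limma-voom, 1214 at 1.5-fold and 172 (without SePC-La sample 1) to 590 (without SePC-La sample 2) with 1 sample left out.

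At a margin of 0.2 the shared counts were 7 GTPases, 7 class I genes, 3 other interferon-stimulated genes, 5 erythroid markers, 9 muscle markers, 2 zinc finger genes and 0 respiratory chain genes. Replicate 1 deviations correlated at 0.086 between Laser and PC-La, -0.43 between Laser and SePC-La and -0.18 between PC-La and SePC-La. Whether samples of equal replicate number were paired or shared a batch cannot be decided from 2 samples per group. With the replicate block 34 genes passed the criterion, 33 of them also without it, and 285 did so between SePC-La and PC-La. Scaling by median ratio or quantiles moved the median of all genes by 0.024 and 0.0067.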
